A study of Mus musculus with 67 samples.

Results

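Of 47 single blastomeres from mouse embryos exposed to aphidicolin, 14 lacked at least 1 long autosomal segment almost completely. A cell was counted among them if 50 or more consecutive bins of 1 autosome, at steps of 200 kb and so at least 10 Mb, all lay below -3 on the log2 scale or had no value. Bins without a value in over 50% of the 67 cells of the study were dropped beforehand, which left 12836 of 13103. No cell of the 20 solvent controls met the rule, and 0 of 20 allows a share of up to 15% at 3 counts if cells are taken as independent. They came from only 3 embryos, so this bound is too narrow where cells of 1 embryo are alike. The cells and segments were chosen by these low log2 values, so their levels are a description and were not tested.

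The study profiled BDF1 mouse embryos, a hybrid strain, that were cultured in vitro and taken apart at the 8-cell stage. Aphidicolin embryos had been exposed to 75 ng/ml aphidicolin during the 4-cell stage, and DMSO embryos to the solvent alone. Each cell was isolated, its genome amplified as a whole and sequenced at low depth, the scRepli-seq assay. Aphidicolin comprised 47 cells of 6 embryos (5 embryos of 8 cells and 1 of 7), and DMSO 20 cells of 3 embryos (8, 8 and 4 cells). Cells are named by library number and embryos by treatment and number; the embryo is the replicate.

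Aphidicolin inhibits the DNA polymerases that copy the genome, and at low doses it slows replication forks rather than stopping them, so that cells can reach division with DNA that is not fully copied. Blastomeres of early embryos divide without growth, and an error at 1 division is inherited by the descendants of that cell. Mouse chromosomes have their centromere at one end; coordinates count from that end, which is called proximal here, and the other end distal. A cell with an even genome would have 2 copies of every autosomal segment before replication.

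Between 0.739 and 2.65 M reads stood behind an Aphidicolin cell and between 1.47 and 2.83 M behind a DMSO cell, with 261 to 1119.5 reads in the median 1-Mb window. Log2 values were turned into copies by setting the autosomal median of each cell to 2 copies, an assumption, once the profile common to all cells had been removed. The level of the whole X in a cell was taken without that removal. All cells passed the authors' filters and came from 1 collection window. The background of events was high in Aphidicolin: 41.8% of its autosomes carried a called gain or loss of at least 10 Mb, against 3.16% of DMSO autosomes.

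All 6 Aphidicolin embryos held cells that lacked a segment, and 1 embryo held most of the segments. Aphidicolin 3 had 5 such cells with 14 of the 25 segments. Aphidicolin 2 had 3 cells with 3 segments, Aphidicolin 1 had 2 cells with 2, Aphidicolin 6 had 2 cells with 4, and Aphidicolin 4 and Aphidicolin 5 had 1 cell with 1 segment each. The share of such cells was 29.8% ± 18.7 per embryo (SD, n = 6), between 12.5 and 62.5%. In 8 of the 14 cells 1 segment was missing, and in 6 cells more than 1.

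Among the 14 cells the longest low run was between 90 bins (Aphidicolin cell 49) and 691 bins (cell 71), with a median of 389. Just outside it lay cell 61 of Aphidicolin 5 with 42 bins, 8.4 Mb at the distal end of chromosome 9 (mm9, 115200001 to 123600000). The next cells outside, 28 and 29 of Aphidicolin 1, tied with further cells, had 12 bins (2.4 Mb) on chromosome 7 from 21200001, a run of the same length as the median longest run of the DMSO cells.

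**Figure D1:**
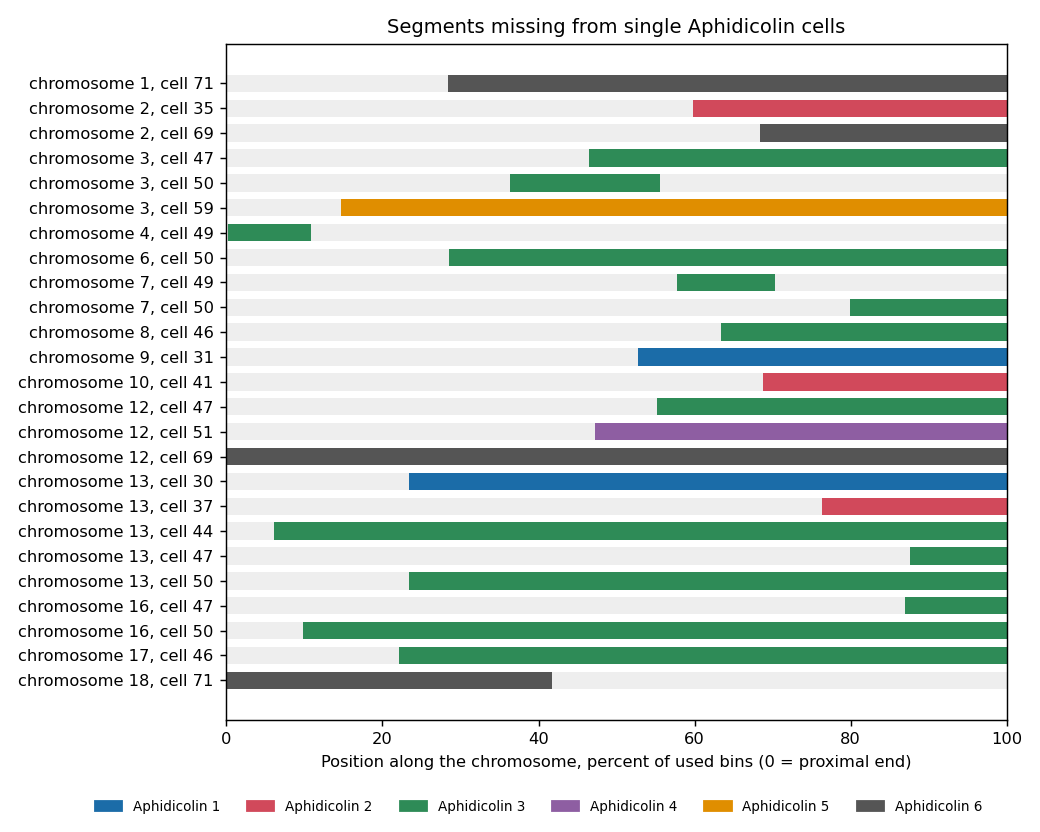
The 25 segments missing from Aphidicolin cells, 1 bar per cell and chromosome, coloured by embryo; the horizontal axis is the position in percent of the used bins of that chromosome, from the proximal end (0) to the distal end (100). The coloured stretch reaches the distal end in 21 of the 25 bars, and 14 bars belong to Aphidicolin 3.

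Positions are given on mm9. In Aphidicolin 1, cell 30 lacked chromosome 13 from 30000001 to its end at 119800000, which is 89.8 Mb at a median log2 value of -8.24. Cell 31 lacked chromosome 9 from 66400001 to the end at 123600000, 57.2 Mb at -7.81. Both segments ran to the distal end, and neither cell shared its segment with the other: cell 31 had 3.06 copies of the segment of cell 30, and cell 30 had 2.00 copies of that of cell 31.

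In Aphidicolin 2, cell 35 lacked 72 Mb of chromosome 2 (109200001 to 181200000, log2 -7.90). Cell 37 lacked 27.8 Mb of chromosome 13 (92000001 to 119800000, -8.48), and cell 41 lacked 39.6 Mb of chromosome 10 (89800001 to 129400000, -8.0). All of these were distal too. The single segments of the next embryos were also distal and longer than those of cells 37 and 41. Cell 51 of Aphidicolin 4 lacked 62.4 Mb of chromosome 12 (58400001 to 120800000, -7.98), and cell 59 of Aphidicolin 5 lacked 133.4 Mb of chromosome 3 (25600001 to 159000000, -7.61), which is 85.3% of that chromosome.

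Aphidicolin 6 held distal and proximal segments and a whole chromosome. Cell 69 lacked the whole of chromosome 12 (2600001 to 120800000, 118.2 Mb, -7.66), the only complete autosome among the 25 segments, and 56.8 Mb of chromosome 2 (124400001 to 181200000, -7.64). Cell 71 lacked 139.2 Mb of chromosome 1 (57400001 to 196600000, -7.85), the longest segment of all, and the proximal 36.6 Mb of chromosome 18 (2600001 to 39200000, -7.39). These cells thus lacked 175 and 175.8 Mb each, 7.26 and 7.27% of the autosomal bins.

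In Aphidicolin 3, cells 44, 46 and 47 lacked distal segments only. Cell 44 lacked nearly all of chromosome 13 (9800001 to 119800000, 110 Mb, log2 -7.04). Cell 46 lacked 46.4 Mb of chromosome 8 (84800001 to 131200000) and 71.8 Mb of chromosome 17 (23000001 to 94800000), both at -8.20. Cell 47 lacked 4 segments: 83.8 Mb of chromosome 3 (75200001 to 159000000, -7.18), 53 Mb of chromosome 12 (67800001 to 120800000, -7.16), 14.6 Mb of chromosome 13 (105200001 to 119800000, -7.16) and 12.4 Mb of chromosome 16 (85400001 to 97800000, -7.23). No chromosome was missing from both cell 46 and cell 47.

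The remaining cells of Aphidicolin 3 held the internal segments. Cell 49 lacked the proximal 16.2 Mb of chromosome 4 (3000001 to 19200000, log2 -7.93) and 18 Mb inside chromosome 7 (91400001 to 109400000, -7.93). Cell 50 lacked 30.0 Mb inside chromosome 3 (59400001 to 89400000, -7.04), and the distal parts of 4 chromosomes. These were 104.6 Mb of chromosome 6 (44400001 to 149000000, -7.10), 28.8 Mb of chromosome 7 (123200001 to 152000000, -7.01), 89.8 Mb of chromosome 13 (30000001 to 119800000, -7.10) and 85.8 Mb of chromosome 16 (12000001 to 97800000, -7.10). With 339 Mb in all, 14.1% of the autosomal bins, cell 50 lacked more than any other cell.

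Segment lengths ran from 12.4 to 139.2 Mb with a median of 57.2 Mb. Of the 25 segments 20 were distal, 1 was a whole chromosome, 2 were proximal and 2 internal. They fell on 14 of the 19 autosomes, 5 of them on chromosome 13, 3 each on chromosomes 3 and 12, and none on chromosomes 5, 11, 14, 15 and 19. Segments of cells 30 and 50, of different embryos, began at the same bin of chromosome 13 (30000001). This was the only case among 13 pairs of segments on 1 chromosome in different embryos, within 2 Mb; of the 6 such pairs within an embryo 0 began within 2 Mb of each other.

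Few reads were left in these segments. A 1-Mb window held a median of 1 to 6 reads, where the median window of the same cell held 505 to 973, so the residual density was 0.310 to 0.861% of the cell's median (median 0.585%). Segments of 1 cell had similar residues: the 4 segments of cell 47 kept 0.750 to 0.843% and the 5 segments of cell 50 kept 0.734 to 0.861%, while both segments of cell 46 kept 0.310 and 0.404%. On chromosome 13 alone it went from 0.334% in cell 37 to 0.843% in cell 47. Expressed in copies, every missing segment lay between 0.00453 and 0.0296.

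Outside the missing segment the same chromosome was often reduced as well. Of the 24 chromosomes with a remainder, 14 had 0.5 to 1.5 copies there, 8 had 1.5 to 2.5 copies and 2 had more than 2.5. The latter were chromosome 13 of cell 37 with 2.85 copies in front of its missing end, and chromosome 7 of cell 50 with 2.89 copies outside the missing end. These are means over the whole remainder, which can hold several levels. Directly beside the bounds, over up to 10 windows, the median was 0.5 to 1.5 copies at 20 of 26 bounds, 1.5 to 2.5 at 5 and 2.90 at 1, that of chromosome 7 in cell 50. A step between about 1 copy and 0 was thus the most frequent form. At the bound in cell 37 the level was 2.10 copies, below the mean of its remainder.

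The first comparison asks what the other cells of the embryo carried at the segments that 1 cell lacked. The rule did not use these values, except where another cell lacked part of the same stretch. In 5 of the 171 pairs of a segment and another cell, that cell lacked most of the stretch as well. In further pairs, all in Aphidicolin 3, it lacked 13.3 to 47.3% of the stretch. The 7 or 6 other cells had 2.30 ± 0.0233 copies of the segments on average, against 2.00 ± 0.0196 in the cells of the other Aphidicolin embryos (SD, n = 6 embryos). The difference of 0.299 ± 0.0287 copies was positive in 6 of 6 embryos (exact two-sided sign-flip permutation test over embryos, p = 0.0313, adjusted p = 0.0313), and 0.0313 is the smallest p that 6 embryos can give. Summed over the embryo, the copies lay near those of even cells: over the 8 cells the copies of a segment summed to 14.6 to 16.9 (median 15.98), where 8 cells with 2 copies would have 16. In the 7 cells of Aphidicolin 6 the sums were 13.5 to 14.1. Without the cells that also lacked the segment the difference was 0.322 copies (same exact test, adjusted p = 0.0313). Without the most opposite cell, described next, it was 0.0207 copies (exact permutation, adjusted p = 0.188). With a level of -4 in place of -3 it was 0.298 (exact permutation p = 0.0313, adjusted p = 0.0938).

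The surplus was not shared out evenly. Over the 171 pairs, 100 were at 1.5 to 2.5 copies, 27 at 3.5 copies or more, 21 at 2.5 to 3.5, 18 at 0.5 to 1.5 and 5 under 0.5. Gains that covered at least 50% of the segment were called in 27.5% of these pairs, against 14.3% in cells of other Aphidicolin embryos and 0.2% in DMSO cells. Losses were called in 13.5% and 15.3% of the pairs, so these shares lay close together.

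To find out which cell carried the surplus, the most opposite cell of each of the 14 cells was defined as the embryo's cell whose log2 values correlated least with it across autosomes free of a missing segment. These correlations ran over 14 to 18 autosomes from -0.896 to -0.502, and those with the next cell from -0.414 to -0.0448. They are descriptive, since windows of 1 chromosome share events. The relation was mutual in every case and gave the pairs 30 with 33, 31 with 34, 35 with 41, 37 with 38, 44 with 45, 46 with 47, 49 with 50, 51 with 57, 59 with 60, 69 with 68 and 71 with 72. The search back from an opposite cell kept the autosomes that only its partner lacked in part. The mutual relation thus draws in part on low values that the rule used. In 6 of the 14 cells the opposite cell itself lacked segments, namely in the pairs 35 with 41, 46 with 47 and 49 with 50. For these pairs the correlations above include such low values as well.

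The most opposite cell carried close to 4 copies of what its partner lacked. It had 3.34 to 4.84 copies (median 3.86) over the 25 segments, and was the highest cell of the embryo in 24 of them. At the exception, chromosome 13 of cell 50, the opposite cell 49 had 3.39 copies and cell 45 had 3.70, which is itself opposite to cell 44 that lacks the same stretch. A gain covered at least 50% of the segment in 25 of 25 opposite cells (100%), against the 14.3% of the other embryos and 15.1% (22 of 146) in the remaining cells of the embryo. Copies of both cells of a pair summed to 3.35 to 4.85 and lay within 0.5 of 4 in 22 of 25 segments. Without Aphidicolin 3 the opposite cells had 3.66 to 4.22 copies of the other 11 segments.

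By embryo, the opposite cells had 3.92 ± 0.0954 copies and the other cells of the embryo 2.02 ± 0.0219 (SD, n = 6). The difference of 1.90 ± 0.0951 copies was positive in 6 of 6 embryos (exact two-sided sign-flip permutation test, p = 0.0313, adjusted p = 0.0469 over 3 measures). The measure was added after the data were seen. With a level of -4 the adjusted p was 0.0938, at a difference of 1.90 and an unchanged p of 0.0313 before adjustment (exact permutation).

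**Figure D2:**
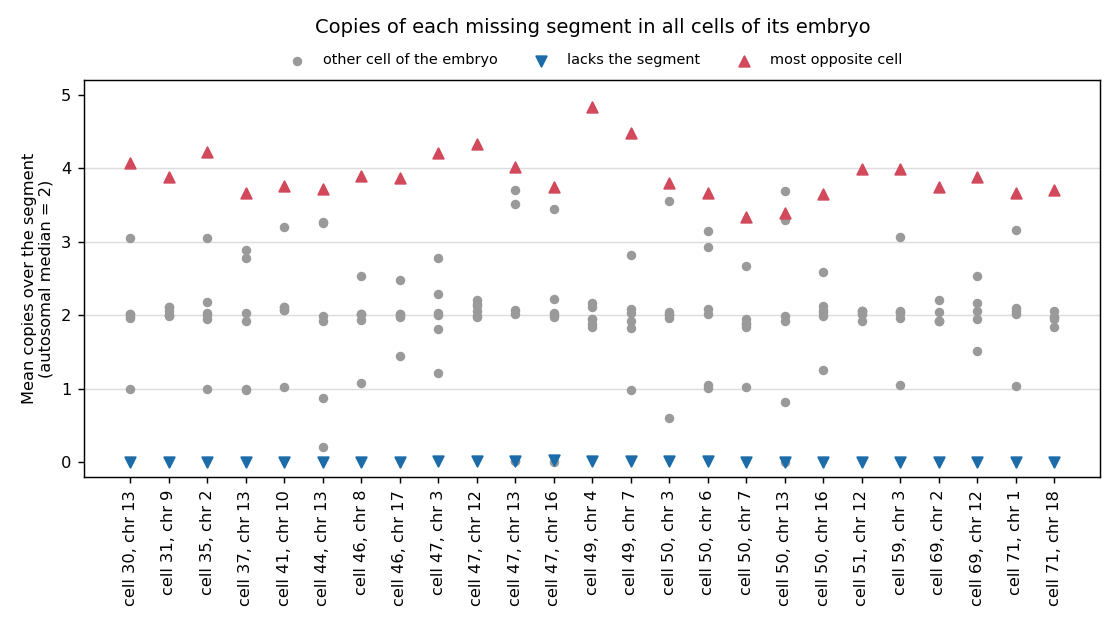
Copies of each of the 25 missing segments (horizontal axis, named by cell and chromosome) in every cell of the same embryo; the vertical axis is the mean over the segment, with the autosomal median of a cell set to 2 copies. The cell that lacks the segment lies near 0, its most opposite cell between 3.34 and 4.84, and 100 of the other points between 1.5 and 2.5.

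The longest segment of each embryo shows how the remaining cells were arranged. For chromosome 13 of cell 30 in Aphidicolin 1, the opposite cell 33 had 4.07 copies, cell 31 had 3.06, cell 34 had 0.992, and cells 27, 28, 29 and 32 had 2.02, 1.98, 2.02 and 1.96. The cells thus sat at nearly whole copies from 0 to 4, with 4 of 8 cells at 2. For chromosome 2 of cell 35 in Aphidicolin 2, the opposite cell 41 had 4.22 copies, cell 40 had 3.05, cell 42 had 1.00, and cells 36, 37, 38 and 39 had 2.03, 2.18, 2.00 and 1.95. Here too single cells lay near 1, 3 and 4 copies and the others near 2.

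For chromosome 3 of cell 59 in Aphidicolin 5, the opposite cell 60 had 3.99 copies, cell 64 had 3.07, cell 62 had 1.06, and cells 61, 63, 65 and 66 had 1.97, 2.05, 2.03 and 2.06. For chromosome 1 of cell 71 in Aphidicolin 6, the opposite cell 72 had 3.67 copies, cell 69 had 3.16, cell 68 had 1.04, and cells 67, 70 and 73 had 2.10, 2.02 and 2.07. Both embryos therefore repeated the arrangement of 0, 1, 3 and 4 copies in 1 cell each. Aphidicolin 4 differed: for chromosome 12 of cell 51 the opposite cell 57 had 4.00 copies, and cells 52, 53, 54, 55, 56 and 58 had 2.03, 2.06, 1.93, 2.06, 2.01 and 2.06.

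In Aphidicolin 3 several cells lacked overlapping parts of chromosome 13. Over the segment of cell 44, the opposite cell 45 had 3.71 copies, cells 46 and 49 had 3.25 and 3.27, cell 47 had 0.880, cell 50 had 0.210, and cells 43 and 48 had 1.92 and 1.99. Over its distal 14.6 Mb, which is the segment of cell 47, cells 44, 47 and 50 had 0.0151, 0.0171 and 0.0138 copies. Their opposite cells 45, 46 and 49 had 3.71, 4.01 and 3.52 copies there, and cells 43 and 48 had 2.02 and 2.07. At this chromosome end 3 cells of 1 embryo thus lay near 0 and 3 cells near 4. A similar overlap of smaller extent lay at the end of chromosome 16, where cells 47 and 50 had 0.0296 and 0.0126 copies and their opposite cells 46 and 49 had 3.74 and 3.45.

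Cells at 0.5 to 1.5 copies had their own counterpart. Each of the 18 cases of 0.5 to 1.5 copies was set against the most opposite cell of that cell, found over the autosomes other than that of the segment. These counterparts had 2.48 to 3.55 copies (median 2.99), and the sum of both was within 0.5 of 4 in 18 of 18 cases (3.62 to 4.23, median 4.03). At the segment of cell 30, for example, cell 34 with 0.992 copies was opposite to cell 31 with 3.06. The cases are not independent, since several come from overlapping segments of Aphidicolin 3, and the sums were computed after the data were seen and have no test. Some are means over a stretch that the cell lacked in part. Cell 47 had 0.598, 0.828 and 1.25 copies of the cell 50 segments on chromosomes 3, 13 and 16. It lacked 47.3, 16.3 and 14.5% of them, and 13.3% of the cell 44 segment (0.880 copies). These cases partly repeat the 0 and 4 copies of cells 47 and 46. In 1 case, cell 36 with cell 39 in Aphidicolin 2, the lowest correlation of the cell was 0.0222 and so not negative.

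For 6 of the 25 segments all other cells of the embryo lay at 1.5 to 2.5 copies, so that the pair alone deviated. They lay on chromosome 12 in cells 47 and 51, and on chromosomes 9, 4, 2 and 18 in cells 31, 49, 69 and 71, in this order. For 14 segments the embryo held a cell at 0.5 to 1.5 and a cell at 2.5 to 3.5 copies as well.

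Pairs in which both cells lacked segments mirrored each other in both directions. Cell 46 had 4.21, 4.33, 4.01 and 3.74 copies of the 4 segments that cell 47 lacked, and cell 47 had 3.90 and 3.86 copies of those that cell 46 lacked. Cell 41 had 4.22 copies of the chromosome 2 segment of cell 35, and cell 35 had 3.76 copies of the chromosome 10 segment of cell 41. Cell 50 had 4.84 and 4.48 copies of the segments of cell 49, and cell 49 had 3.34 to 3.80 copies of those of cell 50. The values of cell 50 above 4 and those of cell 49 below it depend on the assumption that the autosomal median is 2 copies in each of these cells, which was not tested.

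**Figure D3:**
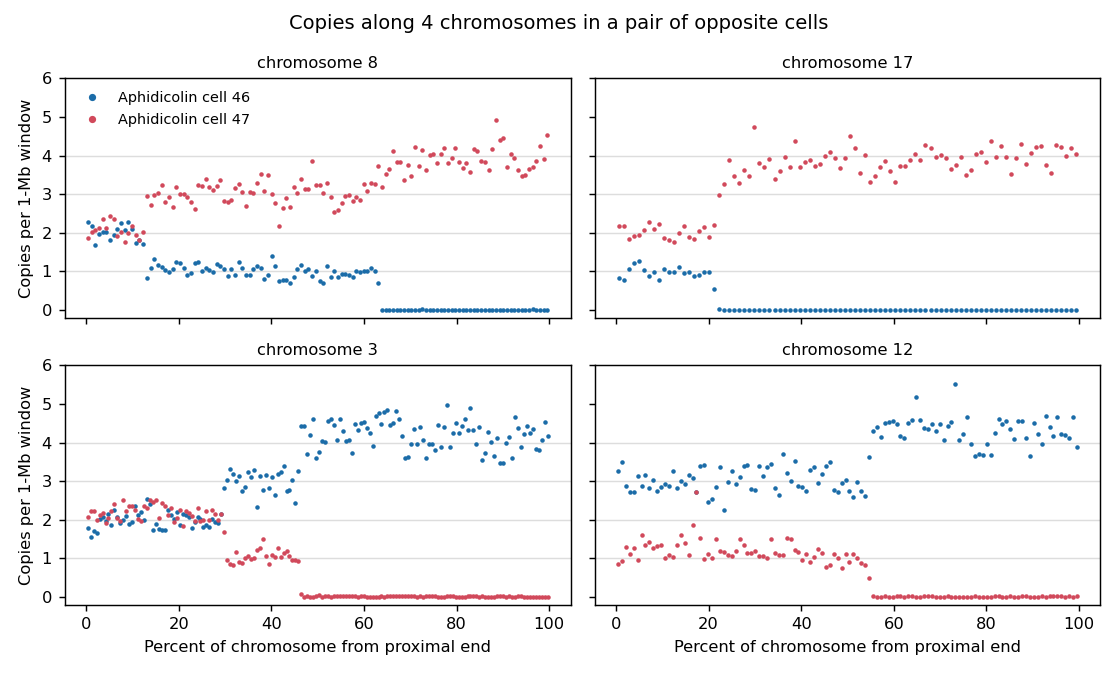
Copies per 1-Mb window (vertical axis) along 4 chromosomes, in percent of the chromosome from the proximal end, for Aphidicolin cell 46 and its most opposite cell 47. On chromosomes 8 and 17 cell 46 falls to near 0 where cell 47 rises to near 4 (means of 3.90 and 3.86 over the segments), and on chromosomes 3 and 12 the roles change (4.21 and 4.33 in cell 46).

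Sums near 4 also extended to the rest of these chromosomes. Outside the missing segment the copies of both cells of a pair summed to 2.99 to 4.34, with a median of 3.95 over 24 chromosomes. The median of every cell is set to 2 copies, so unchanged stretches also sum to about 4. In 8 of the 24 the cell itself had 1.5 to 2.5 copies there, as in cell 30 with 1.87 and its opposite cell 33 with 2.03. Sums of other pairs of cells were not compared. In cell 31 the proximal part of chromosome 9 had 1.08 copies and 3.02 in the opposite cell 34. In cell 37 the proximal part of chromosome 13 had 2.85 copies and 1.09 in the opposite cell 38, although the distal part was at 0.00453 and 3.66 copies. The lowest sum was that of chromosome 17 in cells 46 and 47, at 0.985 and 2.01 copies.

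Breakpoints at the bounds of missing segments recurred in the most opposite cell. There a breakpoint lay within 2 Mb of a bound for 13 of 24 segments (54.2%), against 2.13% (3 of 141 pairs) in the remaining cells of the embryo and 2.88% in cells of other Aphidicolin embryos; over all other cells of the embryo, opposite cells included, it was 9.7%. By embryo, the shares were 12.8% ± 5.75 in the other cells of the same embryo and 2.89% ± 3.35 in other embryos (SD, n = 6), a difference of 9.94 points in the same direction in 6 of 6 embryos (exact two-sided sign-flip permutation test, p = 0.0313, adjusted p = 0.0469; added after the data were seen). This difference rests on the opposite cells: without them it was 2.66 points (exact permutation, adjusted p = 0.563). With a level of -4 it was 9.02 points with an adjusted p of 0.0938. Adjacent levels less than 0.35 apart in log2 were joined, and a step from 3 to 4 copies lies near that limit. In opposite cells the median log2 step from the rest of the chromosome to the segment was 0.461 in the 11 cases without such a breakpoint. It was 0.717 in the 13 cases with one. The part of the joining limit in these counts was not tested.

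The second comparison asks whether missing segments differ in position and length from the other losses of these embryos, of which 164 affected part of a chromosome. By embryo, 92.3% ± 12 of the missing segments and 63.5% ± 13.3 of the other losses reached the distal end (SD, n = 6). The difference of 28.7 ± 13 points was positive in 6 of 6 embryos (exact two-sided sign-flip permutation test, p = 0.0313, adjusted p = 0.0313). Missing segments also covered more of their chromosome, 56.4% ± 18.1 against 38.3% ± 5.51, a difference of 18.1 ± 15.8 points in 6 of 6 embryos (p = 0.0313, adjusted p = 0.0313 by the same exact test). Embryos differed in size here: the difference was 47.4 points in Aphidicolin 5, which has 1 segment, and 0.473 points in Aphidicolin 2. The whole chromosome 12 of cell 69 is counted among the missing segments, while the other losses leave out whole chromosomes. The other losses include those beside a missing segment, which cannot reach the distal end in front of a distal segment. With losses only on other chromosomes, a setting added later, the differences were 26.2 and 17.3 points (exact permutation, adjusted p = 0.0313 for both). With a level of -4 the differences were 21.8 and 14.5 points (adjusted p = 0.125 for both), and with events of at least 20 Mb that in coverage was 13.3 points (adjusted p = 0.0625). On the values as deposited, without removal of the shared profile, they were 62 and 34 points (adjusted p = 0.0313 for both), and with runs of at least 25 bins coverage differed by 10.9 points (adjusted p = 0.0313).

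The third comparison asks whether cells that lack a segment also carry more events on their other autosomes. Among the 14 cells, 6 to 15 of the remaining autosomes carried an event, 33.3 to 92.9% (median 62.9%), and in the other 33 Aphidicolin cells 0 to 15, or 0 to 78.9% (median 31.6%; over all autosomes of these cells 32.2%). The lowest of the 14 were cell 44 of Aphidicolin 3 and cell 51 of Aphidicolin 4, both at 33.3%, and the other cells of Aphidicolin 3 that lacked a segment lay between 86.7 and 92.9%. The ranges overlapped.

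Within embryos the mean share was 57.8% ± 18.2 in cells that lacked a segment and 30.5% ± 9.15 in the others (SD, n = 6). The difference of 27.3 ± 18.7 points was positive in 6 of 6 embryos, from 5.56 points in Aphidicolin 4 to 59.8 in Aphidicolin 3, and did not pass the correction (exact two-sided sign-flip permutation test, p = 0.0313, adjusted p = 0.0833 over 4 measures). Gains and losses each gave a positive mean difference. Gained autosomes were 31.8 against 16% (difference 15.8 points, higher in 5 embryos and equal in Aphidicolin 6; exact permutation p = 0.0625, adjusted p = 0.0833; 35.2 points on the values as deposited, adjusted p = 0.0625), and lost ones 29.8 against 16% (13.8 points, higher in 5 embryos and lower in Aphidicolin 4; exact permutation p = 0.0625, adjusted p = 0.0833). Whole-chromosome events affected 12.5% of the remaining autosomes in these cells and 8.28% in the others (exact permutation p = 0.125, adjusted p = 0.125).

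The most opposite cells lay high as well. The 8 opposite cells that lacked no segment themselves had events on 36.8 to 78.9% of the autosomes (median 52.6%), and the 25 cells that were neither had events on 0 to 47.4% (median 26.3%). The opposite cells were picked by a correlation over these same autosomes, so this split of the other cells is a description. In Aphidicolin 4, where the difference was smallest, 2 cells that were neither lay above both cell 51 and its opposite cell 57.

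**Figure D4:**
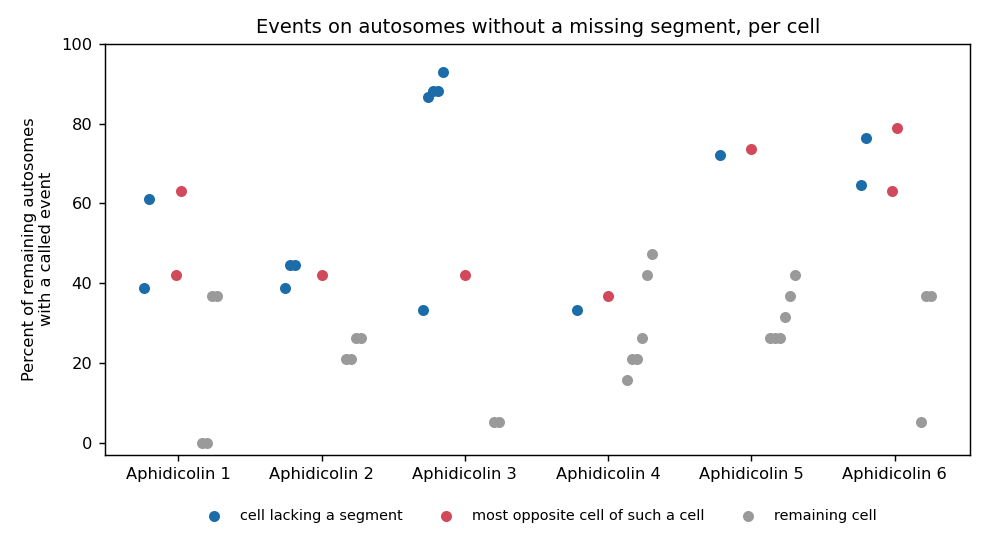
Percent of the autosomes without a missing segment that carry a called gain or loss, for each Aphidicolin cell (points) by embryo (horizontal axis). Cells that lack a segment lie between 33.3 and 92.9%, their most opposite cells that lack none between 36.8 and 78.9%, and the remaining cells between 0 and 47.4%.

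Reads, noise, the weight of the shared profile and the level of X, which is given below, were compared per cell. None of these 4 measures passed its test after correction, but 1 measure alone could not have passed it with 6 embryos. Reads per cell were 1.94 M in cells that lacked a segment and 2.00 M in the other cells of their embryos (exact two-sided sign-flip permutation test, p = 0.656, adjusted p = 0.656). Noise between neighbouring windows, taken on autosomes without a missing segment, was 0.201 against 0.163 on the log2 scale (higher in 5 of 6 embryos, exact permutation p = 0.0625, adjusted p = 0.125). The weight of the profile shared by all cells was 0.989 against 0.718 (higher in 6 of 6 embryos, exact permutation p = 0.0313, adjusted p = 0.125). This p is the smallest that 6 embryos can give, so the missing pass does not show that noise or weight were alike. The part of noise and weight in the difference of event shares was not tested. In a single cell, fewer copies and a failure to amplify a stretch cannot be told apart as the origin of a low value. This was not tested.

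X lay outside the rule. A run of at least 50 low or missing bins on X was present in 4 Aphidicolin cells, of which cells 46 and 69 also lacked autosomal segments and cells 40 and 72 did not, and in 0 of the 20 DMSO cells. Nearly the whole chromosome was concerned in cells 46, 69 and 72 (99.4, 99.1 and 99.4% of its bins), and the distal part from 148800001 to 166200000 in cell 40. Their opposite cells 47, 68, 71 and 42 had 2.10, 1.85, 2.23 and 1.95 copies of the same stretch. The remaining cells of each embryo had medians of 0.995 to 1.05 copies of it. The form of the autosomes, 0 in a cell and a surplus in its opposite, thus recurred on X around 1 copy.

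Levels of the whole X keep the profile common to all cells, unlike the autosomal copies. Among the 14 cells X ranged from 0.00322 to 2.19 copies (median 0.958), and among the 25 cells that were neither from 0.841 to 1.11 (median 0.975). DMSO cells had 1.53 to 1.81 copies (median 1.68), so the number of X chromosomes cannot be told apart from treatment in these embryos. Cell 50 stood at an intermediate 1.53 copies. The distance of X from the embryo's median was 0.314 copies in cells that lacked a segment and 0.0949 in the others, which did not pass (exact two-sided sign-flip permutation test, p = 0.188, adjusted p = 0.188; added after the data were seen), and the log2 level of X was -1.76 against -1.29 (exact permutation p = 0.25, adjusted p = 0.333).

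**Figure D5:**
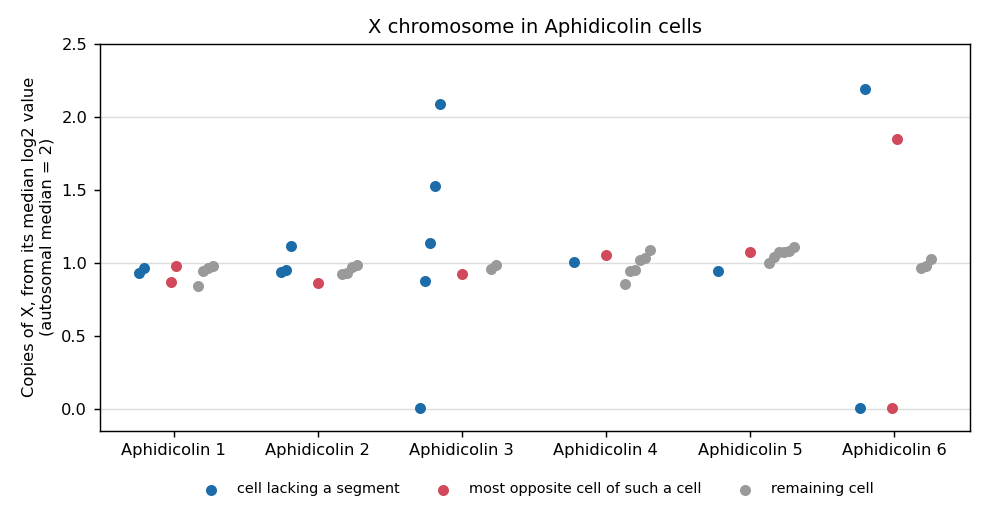
Copies of X in each Aphidicolin cell (points), from its median log2 value with the autosomal median set to 2 copies, by embryo (horizontal axis). The profile common to all cells was not removed here. Most cells lie near 1 copy, cells 46, 69 and 72 near 0, and cells 47, 68 and 71 near 2.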

How the data were processed

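The authors deposited log2 values of read density for each cell, relative to that cell's median, on mm9 (submitters' processing notes); aligner and read filters: not given in the sources used here. Per the file headers, the metadata add a noise score and pass marks as scores, deposited without a stated scale, and as other columns the embryo and the collection window. All values turned back into whole reads (100%, tolerance 0.01), with bins as overlapping 1-Mb windows; missing bins were set to 0.5 reads. The shared profile was removed by Huber regression (Python 3.11.15, numpy 2.4.6, scipy 1.17.1). Events of at least 10 Mb came from penalised change points on values floored at -4: gains above 0.32, losses below -0.42, whole-chromosome from 90% covered. Ends and breakpoints had a tolerance of 2 Mb.

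Embryo differences were tested by exact two-sided sign-flip permutation (64 assignments), with Benjamini-Hochberg adjustment within 3 or 4 measures. Amplified reads are not independent molecules, so floors and shares cover counting error only. Main alternatives were other run lengths and levels, the values as deposited, other call limits and leaving out each embryo. The calls were tested on simulated data. Naming followed 1 rule: all cells and segments, the longest segment per embryo with every cell of that embryo, and the 3 cells outside with the longest runs. Members, lists and measures were chosen with earlier results of these data known. No sequence or gene is given, since no mm9 annotation was used here.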

Additional observations from a re-analysis of the deposited data

Results flagged for a closer look

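Aphidicolin 3 held 14 of the 25 missing segments, and the other embryos 1 to 4. Its distance from the other 5 embryos was large against the range of all 6. It passed a limit that chance passes in about 1 of 20 groups of normally distributed values. Counts of segments need not follow that distribution, and many measures were screened in this way, so this is a flag and not a test. Without this embryo 9 cells and 11 segments remained.

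Outside the autosomes that the rule reads, 4 Aphidicolin cells (40, 46, 69 and 72) had a run of at least 50 low or missing bins on X, against 0 of 20 DMSO cells.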

How the results depend on the processing

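No paired analysis was possible because DMSO and Aphidicolin samples share no number that would pair them. With a run of 25 or 100 bins or a level of -2, no result changed its direction or its side of the threshold (13 to 15 cells, 21 to 27 segments), but coverage fell to 10.9 points with 25 bins. On the values as deposited 7 results kept direction and call, with 62 points for the distal share, 34 for coverage and 35.2 for gained autosomes. With a level of -4 the differences were 0.298 copies in the other cells, 21.8 points for the distal share, 14.5 for coverage, 1.90 copies in the opposite cell and 9.02 points for breakpoints, with adjusted p of 0.0938 to 0.125. Both differences in copies kept p = 0.0313 before adjustment (exact permutation). Their adjusted p rose because other measures of the same correction had larger p. Why distal share, coverage and breakpoints changed was not tested. Coverage gave 13.3 points with events of at least 20 Mb and 17 with stricter call limits (adjusted p = 0.0625 for both, exact permutation).

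Permuting cells within embryos, which takes cells as independent, passed for the aberrant (26.7 points), gained (14.8) and lost (14.2) shares, noise (0.0376) and weight (0.270). X in copies turned the sign to 0.0486, with adjusted p = 0.375 (exact permutation). Without the opposite cell of each segment, added later, the other cells differed by 0.0207 copies and breakpoints by 2.66 points, neither passing. Without the opposite cells among the others, also added later, the event difference was 35.5 points (exact permutation, adjusted p = 0.0625).

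With 1 embryo left out, 5 embryos cannot give a p below 0.0625, so no call could pass. The ranges were 9 to 13 cells, 11 to 24 segments, 0.292 to 0.309 copies in the other cells, 24.9 to 32.1 points for the distal share, 12.2 to 21.6 for coverage, 1.89 to 1.94 copies in the opposite cell, 8.61 to 11 points for breakpoints and 20.8 to 31.6 for event shares. The difference in reads went from -0.0994 to 0.0198 M, positive without Aphidicolin 3. In that embryo's absence the event difference was lowest, at 20.8 points.

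Limits are the 6 embryos, the 10-Mb minimum, the assumed 2 copies at the median, and lower depth in single cells (0.739 M reads at least).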
